A study of Rattus norvegicus with 20 samples.

Results

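The proteasome subunit genes were described here across right ventricles of young rats that had a pulmonary band or a sham operation 4 or 8 weeks before. They were chosen by name alone: every row of the deposited table whose symbol is Psma, Psmb, Psmc, Psmd, Psme, Psmf or Psmg followed by a digit, without Psmb8, Psmb9 and Psmb10. This gave 46 genes of 18282 transcript IDs in the table, with 1 ID each, and the naming rule itself uses no measured value. The members were chosen with earlier results of these data known. They were 8 genes of the alpha ring, 8 of the beta ring, 6 cap ATPases, 11 other cap subunits, 5 activators or inhibitors, 6 assembly chaperones, and 2 further symbols that the naming rule takes in. Of these last, Psmc3ip encodes a recombination factor and no subunit, and Psma3l had no read in any of the 19 libraries.

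The proteasome is the barrel-shaped protease that degrades ubiquitin-tagged proteins in the cytosol and nucleus. Outer alpha rings gate the barrel and inner beta rings hold its cutting sites, while a regulatory cap of ATPases and other subunits binds tagged proteins, removes the ubiquitin and threads the chain into the core. Other activators can take the place of the cap, and chaperones that are not part of the finished particle help to build it. In the heart it turns over contractile and signalling proteins, and its subunit genes are known to respond together to transcription factors of the NRF family when proteolysis falls short.

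The libraries came from Wistar rats, an outbred strain, without any stated allele or drug. A band around the pulmonary artery raises the pressure load on the right ventricle, and sham animals have the surgery without it. The groups were sham at 4 weeks after surgery and an age of 7 weeks (n = 5), banding at 4 weeks and an age of 7 weeks (n = 5), sham at 8 weeks and an age of 11 weeks (n = 5), and banding at 8 weeks and an age of 11 weeks (n = 4). Replicate 2 of the last group is labelled but has no column among the deposited normalized counts, so it was not analysed here. Time after surgery and age cannot be told apart in this design. The labels do not say whether replicates are separate animals, so every p-value measures the spread between these samples, which may be partly technical.

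Recovered depth ran from 2.70 to 8.54 M reads per library, with a median of 5.79 M. The shallowest were replicate 1 of banding at 8 weeks and replicate 1 of sham at 8 weeks (2.81 M). All 6 cardiomyocyte markers were present in every group. Myl7, the atrial myosin light chain, exceeded 1000 normalized counts in 7 libraries, of which 5 were sham (replicates 1 and 3 at 4 weeks, replicates 1, 2 and 5 at 8 weeks) and 2 were banded (replicate 2 at 4 weeks, replicate 3 at 8 weeks). Where a call for banding against sham changed without the libraries high in Myl7 or without both shallow libraries, the value without them is given beside it. Leaving out the libraries high in Myl7 kept few samples. At 8 weeks these were replicates 3 and 4 of sham and replicates 1, 4 and 5 of banding. At 4 weeks they were replicates 2, 4 and 5 of sham and replicates 1, 3, 4 and 5 of banding.

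Members were tested with limma as log2(normalized count + 1) in a model of all libraries. The test took in 10926 IDs, those that reached 10 normalized counts in 4 or more libraries, and the threshold for a call was 0.05 on the Benjamini-Hochberg adjusted p over all of them. Of the 46 genes, 42 passed this filter. The others were Psma3l, the testis-type alpha subunit Psma8 (mean 0.47 normalized counts over all libraries), the thymus-type beta subunit Psmb11 (0.09) and Psmb6 (4.67), the caspase-like catalytic subunit. The reference names 3 copies after Psmb6, and reads can be split between copies, so its low value is uncertain. Among the called members, the reference also names 5 copies after Psma6, 3 each after Psma7 and Psme1, 2 each after Psmb7, Psmc6 and Psmd8, and 1 each after Psmb4, Psmd12 and Psmd14, and reads of these can be split likewise. In the reference, Psmc6 overlaps 2 protein-coding genes on its own strand, Rps10l6 and Styx. Psmc5 and Psmd14 each overlap a pseudogene, and Psma1 and Psmb2 each a long non-coding RNA gene on the opposite strand. Reads of these neighbours could be counted with the members, and the neighbours of Psmd8 and Psme1 are given with those genes. Values are normalized counts, which depend on transcript length, and no lengths were at hand, so levels are compared between libraries of a gene and never between genes.

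At 4 weeks of banding the proteasome genes hardly moved as a group: 2 of 42 members were higher and 1 was lower, where 9.27% of all IDs tested were higher and 9.82% lower (19.1% called in all). The median log2 difference of the members was 0.03, beside 0.00 over all IDs tested. At 8 weeks 12 of 42 members were lower and 1 was higher, so that 28.6% were lower, where 16.6% of all IDs tested were lower and 16.7% higher (33.4% called in all). Their median was −0.15, beside 0.01 over all IDs, and 34 of 42 had a negative difference, as did 49.1% of all IDs. The same counts came from edgeR at both times, and from DESeq2 at 4 weeks, while DESeq2 called 13 lower and 1 higher at 8 weeks. In bulk tissue, fewer cells of a type and less RNA per cell cannot be told apart in any of these differences.

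The reads of all members together made up 0.551% ± 0.0159 of a library in sham at 4 weeks (SD, n = 5) and 0.550% ± 0.0155 in banding at 4 weeks (n = 5). At 8 weeks the share was 0.579% ± 0.0177 in sham (n = 5) and 0.517% ± 0.00881 in banding (n = 4). The sham libraries at 8 weeks lay between 0.552% and 0.599% and the banded ones between 0.510% and 0.529%, so these groups did not overlap, whereas those at 4 weeks did. This share was not tested.

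**Figure D1:**
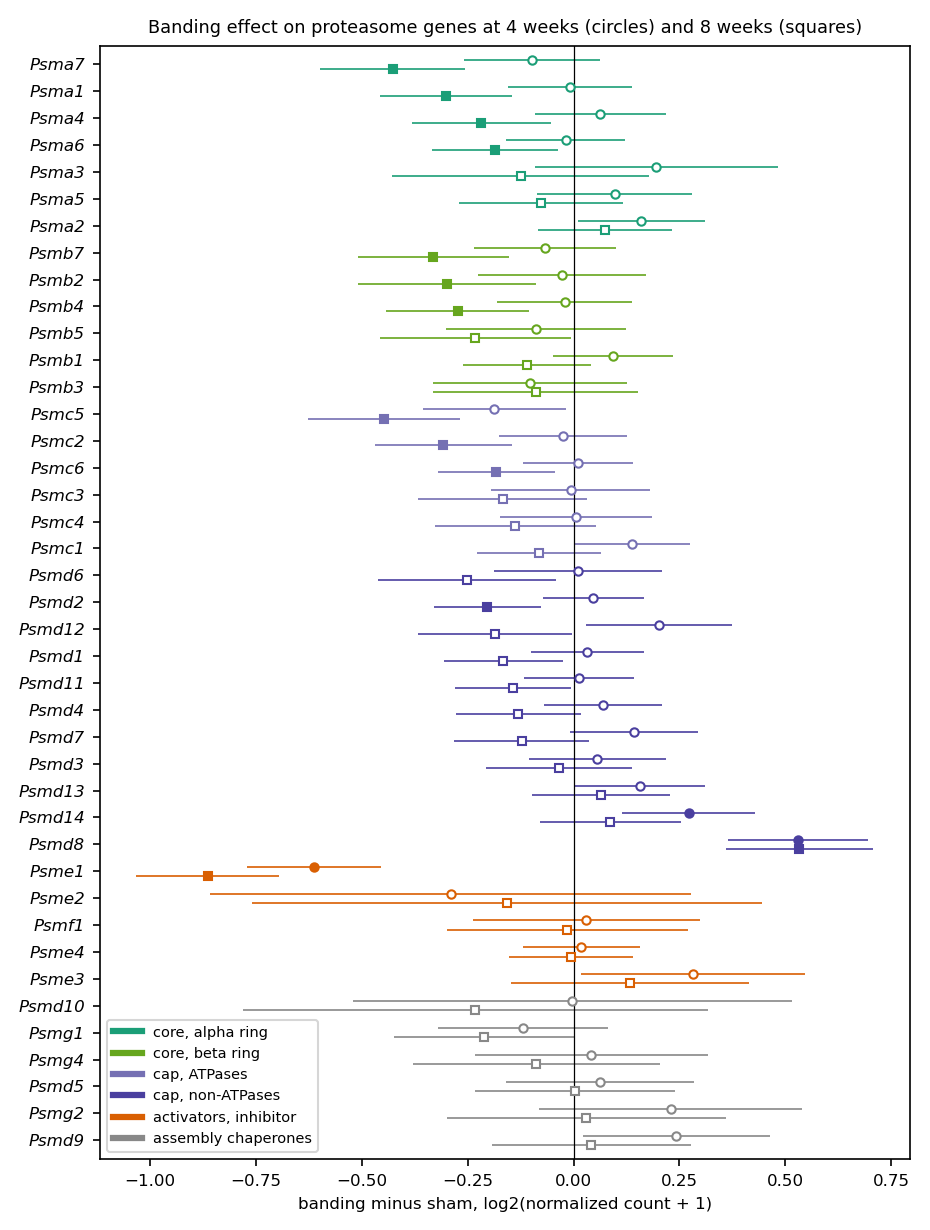
Banding minus sham for the 41 tested subunit, activator and chaperone genes on the log2(normalized count + 1) scale, at 4 weeks (circles) and 8 weeks (squares), with 95% confidence intervals and filled symbols for called genes. Most squares of core and ATPase genes lie left of 0 while the circles centre on it, Psmd8 lies to the right at both times (0.53 and 0.53) and Psme1 to the left (−0.61 and −0.86).

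Upstream sequence is shown for 4 members: Psme1 and Psmd8, which had the largest fall and rise among the members at both times, Psme2, whose product pairs with that of Psme1, and Psmb2, a core gene whose window holds both of the motifs known from proteasome promoters. Each run holds the 250 bases before the RefSeq transcription start, 5′ to 3′ on the gene's strand, in build GRCr8, which is not the build of the counts. Psme1 lies at chr15:33038721-33038970 on the plus strand, Psme2 at chr15:33052752-33053001 on the minus strand, Psmd8 at chr1:93608690-93608939 on the minus strand and Psmb2 at chr5:144254808-144255057 on the plus strand. Capitals mark matches to the antioxidant response element TGACNNNGC, to the CCAAT box CCAAT and to the core of the interferon-stimulated response element (GAAA, any 2 bases, GAAA), searched on both strands.
Psme1: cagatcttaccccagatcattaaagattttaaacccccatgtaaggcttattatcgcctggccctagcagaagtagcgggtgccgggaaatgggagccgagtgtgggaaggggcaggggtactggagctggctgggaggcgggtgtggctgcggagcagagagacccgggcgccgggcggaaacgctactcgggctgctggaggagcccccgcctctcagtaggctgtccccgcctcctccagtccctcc
Psme2: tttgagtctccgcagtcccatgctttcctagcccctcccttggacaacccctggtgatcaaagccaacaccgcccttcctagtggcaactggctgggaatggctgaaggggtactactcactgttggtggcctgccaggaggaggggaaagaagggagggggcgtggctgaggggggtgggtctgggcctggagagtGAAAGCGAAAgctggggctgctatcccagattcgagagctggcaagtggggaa
Psmd8: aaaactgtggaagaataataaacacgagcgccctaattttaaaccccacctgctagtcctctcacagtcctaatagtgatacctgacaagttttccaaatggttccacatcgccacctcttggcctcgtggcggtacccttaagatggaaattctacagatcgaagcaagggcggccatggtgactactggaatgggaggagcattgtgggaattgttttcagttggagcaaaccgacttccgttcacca
Psmb2: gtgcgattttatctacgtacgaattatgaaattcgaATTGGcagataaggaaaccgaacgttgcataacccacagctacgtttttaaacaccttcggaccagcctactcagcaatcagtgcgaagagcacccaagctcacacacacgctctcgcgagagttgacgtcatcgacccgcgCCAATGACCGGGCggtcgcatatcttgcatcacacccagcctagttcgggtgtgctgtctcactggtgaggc
The windows of Psme1 and Psmd8 held none of these letters. Psme2 had the interferon core beginning 53 bases before the start. Psmb2 had CCAAT boxes starting 214 and 72 bases before it and an antioxidant response element starting 68 bases before it, which shares 1 base with the nearer box.

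The table of RefSeq promoter windows had an entry for 40 of the 46 members. Of these 40 windows, 7 (17.5%) held the antioxidant response element, beside 10.1% of all 33469 windows of this length. The CCAAT box was in 19 (47.5%), beside 34.0% of all windows, and the interferon core in 4 (10%), beside 3.41%. Members with the interferon core were Psma4, Psmb3, Psmd7 and Psme2. The antioxidant response element was found for Psma3, Psmb2, Psmb5, Psmb6, Psmd1, Psmd9 and Psme4. The median GC content of the members' windows was 57.2%, beside 51.2% over all windows. These matches describe letters in a window and were not tested.

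Genes of the alpha ring were lower in banded ventricles at 8 weeks for 4 of 7 members, namely Psma7, Psma1, Psma4 and Psma6. Beside this, 16.6% of all IDs tested were lower at 8 weeks. At 4 weeks limma, edgeR and DESeq2 called 0 of the 7, and 1 (Psma2, higher) had an unadjusted p under 0.05 in limma. Psma7, a ring subunit known to bind regulatory proteins as well, was at 1018, 1185, 1096, 1239 and 1079 normalized counts in sham at 4 weeks and at 1174, 968, 935, 1073 and 1103 in banding at 4 weeks. The 8-week values were 925, 1162, 1161, 1185 and 1210.0 in sham and 875, 828, 813 and 828 in banding. Banded and sham libraries were interleaved at 4 weeks and apart at 8 weeks, where replicate 1 of sham, the shallow library, was the closest to the banded ones. The difference was −0.10 ± 0.08 (log2, SE) at 4 weeks (adjusted p = 0.43) and −0.43 ± 0.08 at 8 weeks (adjusted p = 0.000354). Without the libraries under 3 M reads, Psma7 differed by −0.52 at 8 weeks.

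Psma1 was at 881, 1143, 1079, 1107 and 1096 in sham and at 835, 876, 909 and 814 in banding at 8 weeks. All banded libraries were below 4 of the 5 sham libraries and overlapped with replicate 1 of sham. It was lower by −0.30 ± 0.07 (adjusted p = 0.00342), after −0.01 ± 0.07 at 4 weeks (adjusted p = 0.956). Psma4 was at 688, 896, 809, 786 and 826 in sham and at 619, 742, 717 and 673 in banding, and the same sham library lay among the banded ones (−0.22 ± 0.08, adjusted p = 0.0373). Without the libraries high in Myl7, Psma4 differed by −0.25 and was not called (adjusted p = 0.0871). Psma6 differed by −0.19 ± 0.07 (adjusted p = 0.0494), close to the threshold. It was not called without the libraries high in Myl7 (−0.26, adjusted p = 0.0854) or without those under 3 M reads (−0.16, adjusted p = 0.146). Psma3, Psma5 and Psma2 were not called, with −0.12 ± 0.15, −0.08 ± 0.09 and 0.07 ± 0.08. Psma4 missed the threshold in 8 of 34 alternatives and Psma6 in 22, while Psma7 and Psma1 passed in all 34.

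In the beta ring 3 of 6 tested genes were lower at 8 weeks, where 16.6% of all IDs tested were lower. At 4 weeks limma, edgeR and DESeq2 called 0, and 0 had an unadjusted p under 0.05. Psmb7, the trypsin-like catalytic subunit, was at 957, 998, 887, 1119.6 and 949 normalized counts in sham and at 1026, 859.7, 899, 998 and 901 in banding at 4 weeks. At 8 weeks it was at 925, 1130.0, 1127, 1228 and 1071 in sham and at 919, 749.5, 909 and 905 in banding. The 8-week groups did not overlap, by the narrow gap between 919 and 925. Psmb7 differed by −0.07 ± 0.08 at 4 weeks (adjusted p = 0.627) and was lower by −0.33 ± 0.09 at 8 weeks (adjusted p = 0.00475).

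Psmb2, a structural beta subunit, was at 388, 487, 438, 541 and 526 in sham and at 393, 387, 365 and 393 in banding at 8 weeks. Banded libraries lay within 365 and 393, at the level of the lowest sham library. The difference was −0.30 ± 0.10 (adjusted p = 0.0269), and it missed the threshold in 6 of 34 alternatives (adjusted p up to 0.0765), among them the one without the libraries high in Myl7 (−0.34, adjusted p = 0.065). Psmb4, also structural, was at 935, 1064, 1034, 1123 and 1108 in sham and at 907, 897, 851 and 822 in banding, without overlap (−0.27 ± 0.08, adjusted p = 0.0126). Psmb5, the chymotrypsin-like subunit and target of bortezomib, was at 631, 732, 847, 894 and 644 in sham and at 663, 631, 631 and 604 in banding. Its groups overlapped and it was not called (−0.23 ± 0.11, 95% interval −0.46 to −0.01, adjusted p = 0.109). It was called at −0.46 without the libraries high in Myl7 (adjusted p = 0.00803), at −0.29 without replicate 1 of sham (adjusted p = 0.0469), and at −0.31 with a score of atrial markers as a covariate (adjusted p = 0.00187). Psmb1 and Psmb3 were not called either (−0.11 ± 0.07 and −0.09 ± 0.12), and the reference names 10 copies after Psmb3, so its values are uncertain.

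Among the 6 ATPases, which form the ring that unfolds substrates, Psmc5, Psmc2 and Psmc6 were lower at 8 weeks. Beside these 3 of 6, 16.6% of all IDs tested were lower. At 4 weeks limma, edgeR and DESeq2 called 0 of the 6, and 2 had an unadjusted p under 0.05 (Psmc5 lower, Psmc1 higher). Psmc5 was at 977, 903, 709, 973 and 934 normalized counts in sham and at 837, 774, 764, 782 and 769 in banding at 4 weeks. The 8-week libraries were at 1024, 1138, 1129, 1221 and 981 in sham and at 897, 794, 745 and 784 in banding. All 9 banded libraries of both times lay between 745 and 897, and the 8-week sham libraries lay above them. Replicate 3 of sham at 4 weeks, at 709, was the one sham library among or below the banded ones. Psmc5 was lower by −0.45 ± 0.09 at 8 weeks (adjusted p = 0.000348). Its 4-week difference of −0.19 ± 0.08 was not called (adjusted p = 0.12), but was called at −0.27 without replicate 3 of sham (adjusted p = 0.00814) and at −0.25 without the libraries high in Myl7 (adjusted p = 0.0367).

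Psmc2 was at 998, 1190.0, 1231, 1276 and 1212 in sham and at 1005, 947, 974 and 883 in banding at 8 weeks. Replicate 1 of sham lay within the banded range and the other 4 sham libraries lay above it. The difference was −0.31 ± 0.08 (adjusted p = 0.00376), after −0.03 ± 0.07 at 4 weeks (adjusted p = 0.86). Psmc6 differed by −0.18 ± 0.07 with overlapping groups (adjusted p = 0.0396) and missed the threshold in 9 of 34 alternatives, among them the one without the libraries high in Myl7 (−0.19, adjusted p = 0.18). Psmc3, Psmc4 and Psmc1 were not called at 8 weeks (−0.17 ± 0.10, −0.14 ± 0.09 and −0.08 ± 0.07). Without the libraries high in Myl7, Psmc3 was called at −0.35 (adjusted p = 0.0368).

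The other cap subunits held the only members that were called higher in banding. Psmd8, a subunit of the cap's lid, was at 426, 406, 437, 418 and 379.8 normalized counts in sham and at 632, 639, 539.7, 621 and 559 in banding at 4 weeks. At 8 weeks it was at 334, 371, 390.4, 456 and 415 in sham and at 593, 586, 584 and 508 in banding. Every banded library was above every sham library at both times. The rise was 0.53 ± 0.08 at 4 weeks (44.4%, adjusted p = 4.45e-05) and 0.53 ± 0.08 at 8 weeks (44.7%, adjusted p = 3.77e-05), and it passed in all 34 alternatives at each time. A protein-coding gene without a name lies on the opposite strand over part of Psmd8, and the strand setting of the counting was not given in the sources used here, so reads of both cannot be told apart.

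Psmd14, the deubiquitinase of the lid, was at 429, 461, 412, 455 and 413 in sham and at 579, 505, 445, 578 and 523 in banding at 4 weeks. Of the banded libraries, 4 of 5 lay above all sham libraries. It was higher by 0.27 ± 0.08 (adjusted p = 0.0135), and differed by 0.26 without the libraries high in Myl7, where it was not called (adjusted p = 0.107). Over all 34 alternatives it lay between 0.24 and 0.33. At 8 weeks it was at 438, 441, 479, 460.0 and 451 in sham and at 447, 477, 551 and 457 in banding, with overlap (0.09 ± 0.08, adjusted p = 0.441).

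Psmd2, a large scaffold of the cap's base, was at 2571, 2836, 2660.2, 2818 and 2444 in sham and at 2387, 2254, 2360.1 and 2250.1 in banding at 8 weeks. The groups did not overlap, and it was lower by −0.20 ± 0.06 (adjusted p = 0.0133). Without the libraries high in Myl7 the difference was −0.23 and was not called (adjusted p = 0.0559). Psmd1, the other base scaffold, did not overlap either, at 2284 to 2567 in sham and 1971 to 2204 in banding, and was not called (−0.17 ± 0.07, adjusted p = 0.0652). The lid subunits Psmd11 and Psmd12 were not called at 8 weeks, with −0.14 ± 0.07 (adjusted p = 0.102) and −0.19 ± 0.09 (adjusted p = 0.114). Psmd12 was called at −0.34 without the libraries high in Myl7 (adjusted p = 0.0247) and at −0.23 with the atrial score (adjusted p = 0.0204). At 4 weeks their differences were 0.01 ± 0.06 and 0.20 ± 0.08 (adjusted p = 0.918 and 0.097), and Psmd12 was called at 0.26 without replicate 4 of sham (adjusted p = 0.0336). Psmd6 differed by −0.25 ± 0.10 at 8 weeks (adjusted p = 0.0616) and was called at −0.35 without the libraries under 3 M reads (adjusted p = 0.0127). Psmd7 differed by −0.12 ± 0.08 (adjusted p = 0.237) and was called at −0.32 without the libraries high in Myl7 (adjusted p = 0.0158). The ubiquitin receptor Psmd4 differed by −0.13 ± 0.07 at 8 weeks (adjusted p = 0.173). In all, 4 of the 17 cap genes were lower and 1 was higher at 8 weeks, beside 7 of 13 core genes lower. The cap's 23.5% lower is near the 16.6% of all IDs tested, and the core's share was 53.8%. This contrast depended on the tool: edgeR called 6 core and 5 cap genes lower, and DESeq2 called 6 and 6. The difference between core and cap was not tested.

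**Figure D2:**
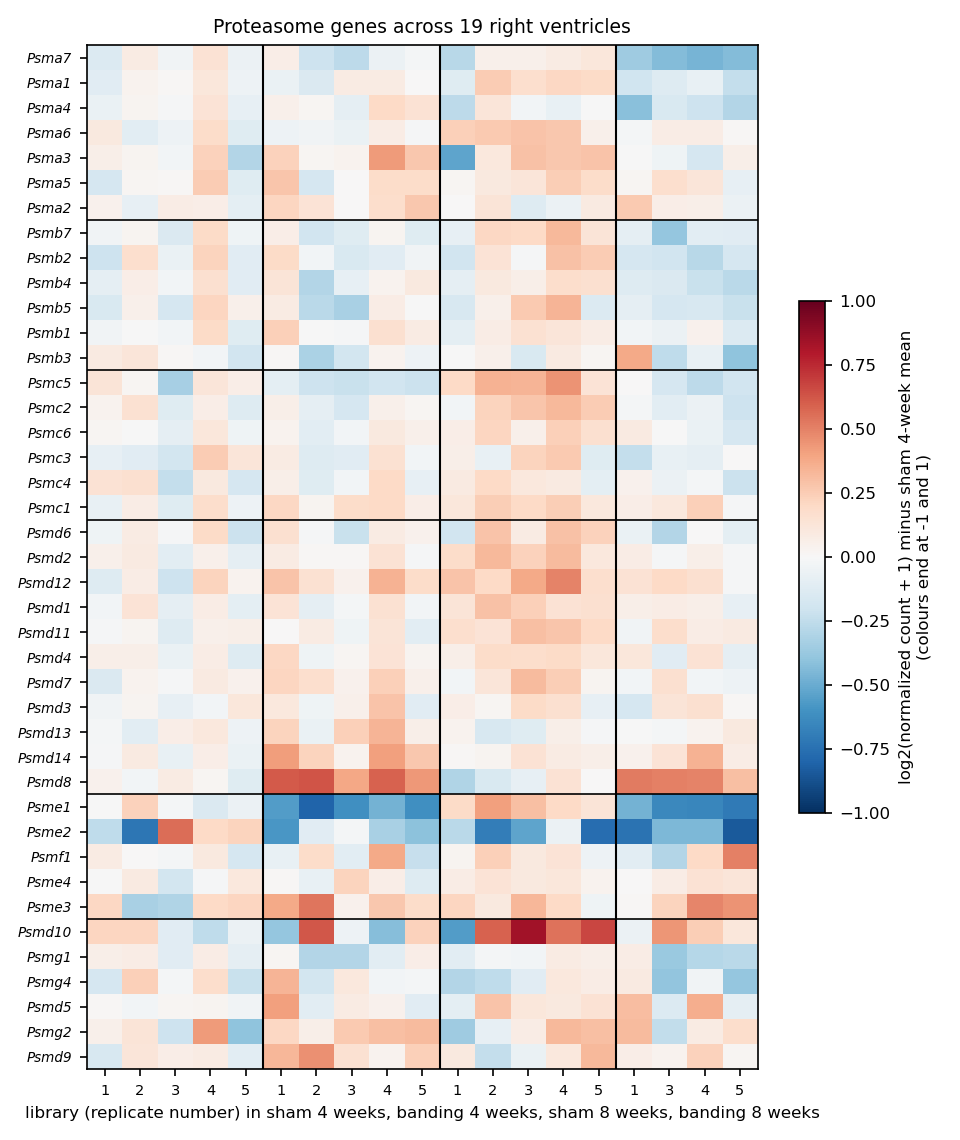
Log2 difference of each tested subunit, activator and chaperone gene (rows) from its mean in sham at 4 weeks, for the 19 libraries (columns) in the order sham 4 weeks, banding 4 weeks, sham 8 weeks and banding 8 weeks. The 4 columns of banding at 8 weeks are blue for Psma7, Psmb4 and Psmb2 and red for Psmd8, and Psme1 is blue in all 9 banded columns.

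Activators gave the largest change of any member, and it was borne by a single gene. Psme1 encodes the alpha subunit of PA28, an interferon-inducible activator known to alter the peptides that the core releases. It was at 1267, 1489.5, 1251, 1146 and 1219.8 normalized counts in sham and at 864, 727, 828, 917 and 829 in banding at 4 weeks. Later, at 8 weeks, it was at 1449, 1688, 1567, 1458 and 1385 in sham and at 915, 813, 809 and 777 in banding. All 9 banded libraries lay between 727 and 917 and all 10 sham libraries at 1146 or above, without overlap at either time. Psme1 was lower by −0.61 ± 0.08 at 4 weeks (34.6% lower, adjusted p = 4.7e-06) and by −0.86 ± 0.08 at 8 weeks (45.0% lower, adjusted p = 4.03e-08). It passed in all 34 alternatives at both times, with 8-week values between −0.93 and −0.82. The difference between both effects was −0.25 ± 0.11 and was not called (adjusted p = 0.384). Emc9 overlaps Psme1 on the opposite strand, and the reference names 3 copies after Psme1, so a part of its reads could come from these.

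Psme2, the beta subunit of the same activator, was not called at either time. It was at 11.6, 8.11, 21.1, 16.2 and 16.5 in sham and at 9.06, 12.9, 13.8, 11.0 and 10.3 in banding at 4 weeks. At 8 weeks it was at 11.5, 8.31, 9.44, 13.4 and 7.88 in sham and at 8.01, 10.03, 10.02 and 7.39 in banding. The libraries overlapped at both times, and the differences were −0.29 ± 0.27 and −0.16 ± 0.29 (adjusted p = 0.524 and 0.717). The 8-week interval ran from −0.76 to 0.44. The reference names 3 copies after Psme2 as well, so its level is uncertain.

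Psme3, the nuclear activator PA28 gamma, was at 200.1, 138, 141, 199 and 201 in sham and at 225, 252, 178, 209 and 197 in banding at 4 weeks. The groups overlapped and the difference of 0.28 ± 0.13 was not called (adjusted p = 0.136), nor was that of 0.13 ± 0.14 at 8 weeks (adjusted p = 0.486). Psme4 encodes PA200, a nuclear activator known from histone degradation. It was at 3198, 3402, 2816, 3184 and 3452 in sham and at 3226, 3043, 3728, 3355 and 2927 in banding at 4 weeks, and at 3288 to 3512 in sham and 3216 to 3531 in banding at 8 weeks. Banded libraries lay on both sides of the sham libraries. Its difference was 0.02 ± 0.07 at 4 weeks (95% interval −0.12 to 0.16, adjusted p = 0.888) and −0.01 ± 0.07 at 8 weeks (−0.15 to 0.14, adjusted p = 0.965). Psmf1, the inhibitor PI31, differed by 0.03 ± 0.13 and −0.01 ± 0.14 (adjusted p = 0.907 and 0.949).

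**Figure D3:**
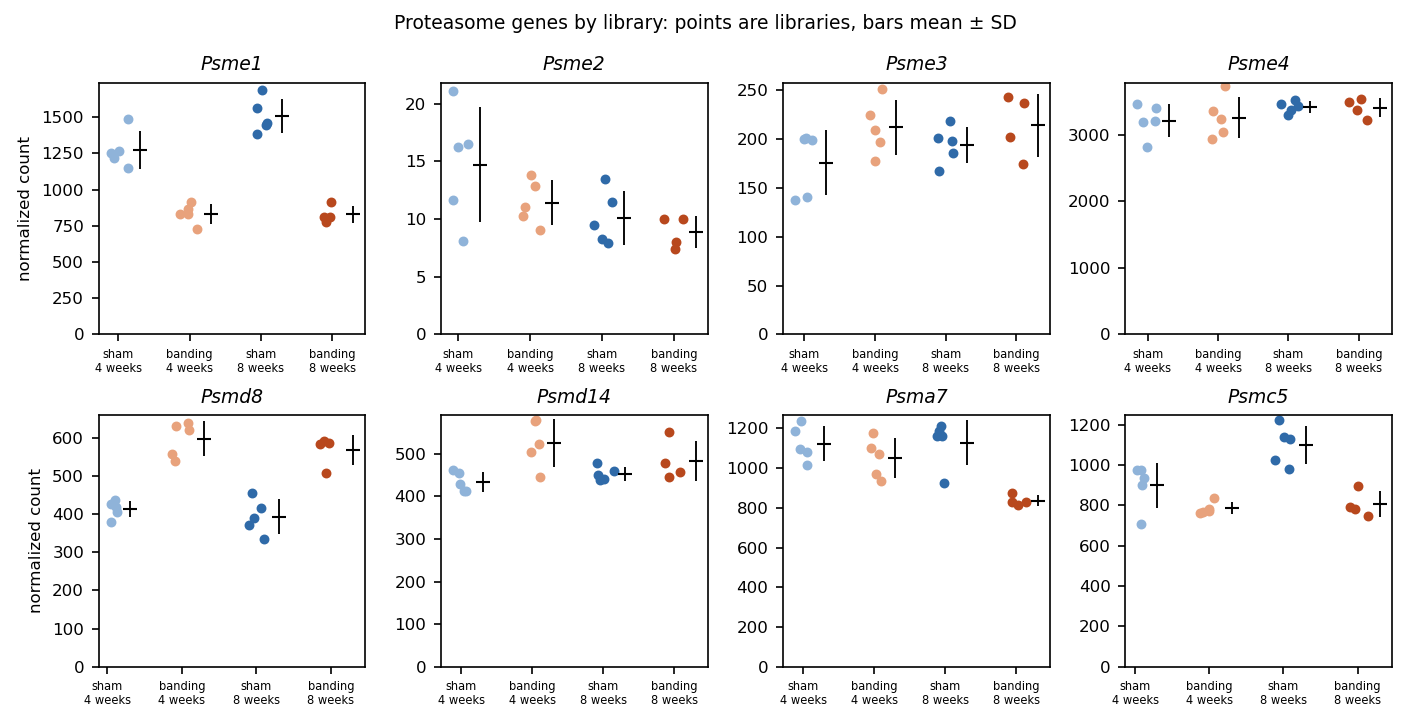
Normalized counts of Psme1 to Psme4, Psmd8, Psmd14, Psma7 and Psmc5 in each library (points) with the group mean ± SD (bars), by group, on linear axes from 0. Banded libraries of Psme1 lie between 727 and 917 and those of Psmd8 between 508 and 639, apart from the sham libraries at both times, while Psma7 and Psmc5 are apart only at 8 weeks.

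None of the 6 assembly chaperones was called at either time with limma, edgeR or DESeq2, and 1 of them (Psmd9, higher at 4 weeks) had an unadjusted p under 0.05. Psmd9, Psmd10 and Psmd5 help to assemble the cap's base, and Psmg1, Psmg2 and Psmg4 the core. Psmd9 was at 119.7, 146, 141, 142 and 124 in sham and at 169, 185, 149, 138 and 158 in banding at 4 weeks (0.24 ± 0.11, adjusted p = 0.123), and 4 of 5 banded libraries lay above all sham libraries. At 8 weeks it differed by 0.04 ± 0.11 (adjusted p = 0.81). Psmg1 differed by −0.21 ± 0.10 at 8 weeks (adjusted p = 0.119) and was called at −0.31 without replicate 1 of banding (adjusted p = 0.0231) and at −0.33 without the libraries under 3 M reads (adjusted p = 0.0189). Psmd10, at 15.3 to 42.0 normalized counts, had wide intervals (−0.23, from −0.78 to 0.32, adjusted p = 0.538). Psmc3ip, the member that is no subunit, differed by 0.08 ± 0.21 and −0.22 ± 0.23 (adjusted p = 0.842 and 0.487).

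The mean log2 level of the 13 core genes, set against sham at 4 weeks, was 0.01 ± 0.11 in banding at 4 weeks, 0.08 ± 0.11 in sham at 8 weeks and −0.12 ± 0.05 in banding at 8 weeks (SD over libraries). Sham libraries at 8 weeks ran from −0.12 to 0.18 and banded ones from −0.18 to −0.06, so the groups overlapped, through replicate 1 of sham. For the 17 cap genes the same means were 0.09 ± 0.09, 0.14 ± 0.07 and 0.03 ± 0.04. Within the cap the ATPases went from 0.16 ± 0.08 in sham to −0.06 ± 0.05 in banding at 8 weeks without overlap. The other subunits went from 0.13 ± 0.07 to 0.08 ± 0.05 with overlap, a mean that includes the rise of Psmd8 (0.53). Of these 11 genes, 8 had a negative difference at 8 weeks, and the median of the 11 was −0.13. In banding at 4 weeks the 11 were at 0.14 ± 0.09, each with a positive difference, and the ATPases at −0.01 ± 0.08. These means describe the lists and were not tested.

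**Figure D4:**
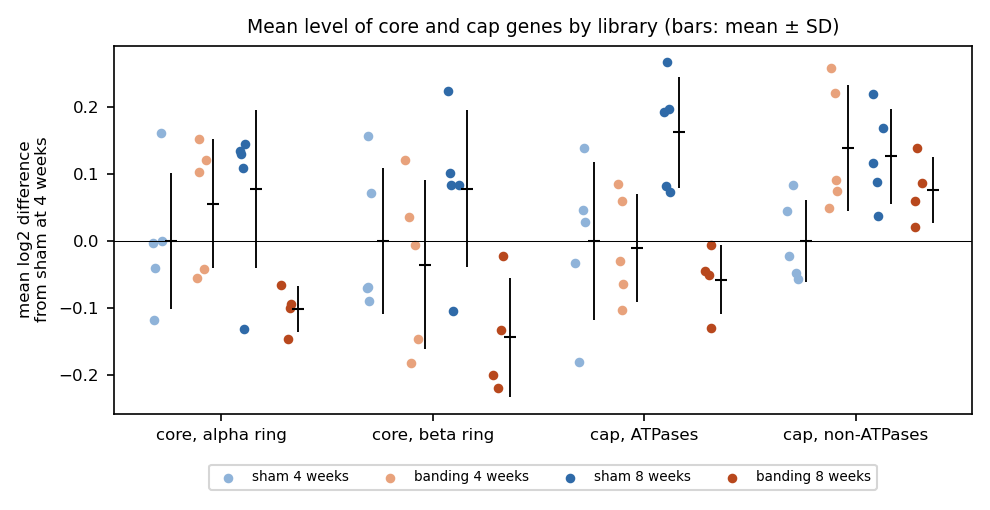
Mean log2 difference of the genes of each ring and cap part from sham at 4 weeks, with 1 point per library and bars for the group mean ± SD. At 8 weeks the ATPase points of banding (−0.13 to −0.01) lie below those of sham (0.07 to 0.27), and in both core rings 1 sham library, replicate 1, lies among the banded ones.

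Sham ventricles had 4 of 42 members higher at 8 than at 4 weeks and none lower (none with an unadjusted p under 0.05, or by edgeR or DESeq2), where 2.67% of all IDs tested were higher and 3.86% lower (6.53% called in all). All 4 were cap genes: Psmd12 (0.31 ± 0.08, adjusted p = 0.0282), Psmc5 (0.29 ± 0.08, adjusted p = 0.0319), Psmd2 (0.23 ± 0.06, adjusted p = 0.0181) and Psmd11 (0.22 ± 0.06, adjusted p = 0.0372). Psmd12 was at 557, 641, 526, 708 and 622 at 4 weeks and at 739.7, 699, 791, 858 and 682 at 8 weeks, with overlap. Psmd11 was at 589.7, 606, 544, 615 and 619 at 4 weeks and at 669, 655, 734, 719 and 684 at 8 weeks, without overlap. The 4 genes were not called when replicate 3 of sham at 4 weeks, replicate 4 of sham at 8 weeks, or all libraries high in Myl7 were left out. Over the 34 alternatives Psmd12 stayed between 0.25 and 0.36, Psmc5 between 0.21 and 0.33, Psmd2 between 0.17 and 0.26 and Psmd11 between 0.18 and 0.24. DESeq2 called 8 members and a fit of only both sham groups called 0. In the reported limma fit of all libraries, 11 members had an unadjusted p under 0.05. No share of all IDs was worked out beside this last count.

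In banded ventricles 1 of 42 members was lower at 8 than at 4 weeks and none was higher (none with an unadjusted p under 0.05, or by edgeR or DESeq2), where 0.659% of all IDs tested were lower and 0.485% higher (1.14% called in all). Psma4 was at 853, 835, 776, 947 and 914 at 4 weeks and at 619, 742, 717 and 673 at 8 weeks, without overlap. It differed by −0.33 ± 0.08 (adjusted p = 0.0398), and missed the threshold in 15 of 34 alternatives, with −0.38 without the libraries high in Myl7 (adjusted p = 0.0754) and −0.28 without those under 3 M reads (adjusted p = 0.0741). Psma7 differed by −0.32 ± 0.08 without overlap and was just not called (adjusted p = 0.0523). Cap genes had 0 calls with limma, edgeR and DESeq2, and 0 had an unadjusted p under 0.05.

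Both comparisons over time share libraries with the comparisons of banding with sham, so the same libraries set their signs. Psmc5 differed by 0.29 between the sham groups, by 0.03 between the banded groups and by −0.45 between banding and sham at 8 weeks. Psmd2 differed by 0.23, −0.02 and −0.20 in the same order, and Psma4 by −0.05, −0.33 and −0.22. For Psmc5 and Psmd2 the sham level at 8 weeks was above the other 3 groups, while for Psma4 the banded level at 8 weeks was below the other 3.

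Whether the banding effect itself differed between 8 and 4 weeks was tested as an interaction. With limma, edgeR and DESeq2, 0 of 42 members were called, where 0.0275% of all IDs tested were called. At an unadjusted p under 0.05, 14 members were lower and none higher, 13 of them among the 30 core and cap genes. The share of all IDs at this unadjusted threshold was not worked out, so the count has no background beside it. The smallest p belonged to Psmd12, with −0.39 ± 0.12 (adjusted p = 0.204), and Psmd2 and Psma7 followed with −0.25 ± 0.08 (adjusted p = 0.254) and −0.33 ± 0.11 (adjusted p = 0.265). Thus the falls at 8 weeks were not shown to differ from the values at 4 weeks for any single member. The median of the members was −0.20, beside 0.00 over all IDs tested.

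The immunoproteasome subunits Psmb8, Psmb9 and Psmb10, which replace the catalytic beta subunits under interferon, are not members and were measured for comparison. None of the 3 was called in any of the 5 comparisons with limma, edgeR or DESeq2, and 1 of the 15 unadjusted p-values was under 0.05. Psmb9 was at 111, 77.8, 96.1, 125 and 114 in sham and at 86.5, 97.3, 119, 85.8 and 83.3 in banding at 4 weeks, and at 87.4 to 118 and 88.9 to 124 at 8 weeks. Its differences were −0.14 ± 0.14 and 0.06 ± 0.15 (adjusted p = 0.531 and 0.781), with overlap at both times. Psmb10 differed by −0.07 ± 0.12 and 0.09 ± 0.12 (adjusted p = 0.741 and 0.611) and Psmb8 by −0.08 ± 0.28 and −0.09 ± 0.30 (adjusted p = 0.882 and 0.849).

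Of 8 tested cap partners and assembly factors with other names, Zfand2a was higher and Akirin2 lower at 8 weeks, and none was called at 4 weeks with limma, where 1 had an unadjusted p under 0.05 and edgeR and DESeq2 called 0 and 1. Of all IDs tested, 19.1% were called at 4 weeks and 33.4% at 8 weeks. Akirin2, which carries proteasomes into the nucleus, averaged 323 ± 32.3 in sham and 271 ± 17.9 in banding (−0.25 ± 0.08, adjusted p = 0.0202). Zfand2a, a stress-induced protein that binds the cap, averaged 119 ± 19.1 and 164 ± 10.3 (0.47 ± 0.13, adjusted p = 0.00764). The ubiquitin receptor Adrm1 and the deubiquitinases Usp14 and Uchl5 were not called at either time. The lid subunit Sem1 differed by 0.28 ± 0.10 at 4 weeks (adjusted p = 0.0532).

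Of 9 genes known to control proteasome gene transcription, 3 were higher and 1 lower at 4 weeks, and 3 were higher at 8 weeks. Of all IDs tested, 9.27% were higher and 9.82% lower at 4 weeks, and 16.7% were higher at 8 weeks. Mafk, a small Maf partner of the NRF factors, averaged 451 ± 59.0 in sham and 831 ± 81.4 in banding at 4 weeks (0.88 ± 0.11, adjusted p = 2.71e-06), and 548 ± 51.4 and 904 ± 188 at 8 weeks (0.71 ± 0.11, adjusted p = 4.04e-05). Maff, another small Maf, was higher by 0.63 ± 0.14 and 0.59 ± 0.15 (adjusted p = 0.00279 and 0.00426). Nfe2l2, which encodes NRF2, was higher by 0.26 ± 0.06 and 0.22 ± 0.07 (adjusted p = 0.00474 and 0.0154). All 3 separated sham from banded libraries at both times. These 3 were already called, and the share of all IDs without overlap was not worked out. Ddi2, the protease that activates NRF1, was lower at 4 weeks (−0.25 ± 0.08, adjusted p = 0.0214) and not called at 8 weeks (−0.13 ± 0.08, adjusted p = 0.232).

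Of 15 tested ubiquitin and shuttle genes, 3 were higher at 4 weeks, and 3 were higher and 1 lower at 8 weeks. These counts are to be read against 9.27% of all IDs higher at 4 weeks, and 16.7% higher and 16.6% lower at 8 weeks. Sqstm1, the p62 receptor that links ubiquitin to autophagy, averaged 1169 ± 127 in sham and 1716 ± 229.7 in banding at 4 weeks and 1524 ± 187 and 1999.8 ± 229 at 8 weeks. It was higher by 0.55 ± 0.10 and 0.39 ± 0.11 (adjusted p = 0.000348 and 0.00592), without overlap at either time. The polyubiquitin gene Ubb was higher by 0.24 ± 0.07 and 0.19 ± 0.07 (adjusted p = 0.0183 and 0.0486). Of the shuttle receptors, Rad23b was higher at 4 weeks (0.22 ± 0.06, adjusted p = 0.00698). Uba6, a ubiquitin-activating enzyme, was higher at 8 weeks (0.24 ± 0.08, adjusted p = 0.0203).

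Some markers of other cells moved with banding. The shares of all IDs tested were 9.27% higher and 9.82% lower at 4 weeks, and 16.7% higher and 16.6% lower at 8 weeks. Of 6 macrophage markers, 5 were higher at 8 weeks and 4 at 4 weeks. The 1 not called at 8 weeks had a negative difference (−0.19). Their summed level ran from 1988 to 2675 normalized counts in sham and from 3613 to 4231 in banding at 8 weeks. All 3 adipocyte markers had a negative difference at both times, and none was called with limma, edgeR or DESeq2. Of 5 endothelial markers 3 were higher at 8 weeks, with sums of 5862 to 6506 in sham and 6318 to 10467 in banding. The 6 cardiomyocyte markers summed to 467093 to 544519 in sham and 313909 to 360724 in banding at 8 weeks, with Myh6 (−1.30 ± 0.13) and Tnni3 (−0.84 ± 0.10) lower and Actc1 (0.32 ± 0.12) higher (adjusted p = 7e-08, 1.93e-06 and 0.0403). The fibroblast sums overlapped at 8 weeks (23829 to 39207 and 31293 to 35549.6), and 1 of 5 fibroblast markers was called lower at each time. All 5 had a negative difference at 4 weeks, while 3 had a positive and 2 a negative one at 8 weeks. Both tested red cell markers, Hbb and Alas2, were higher at 8 weeks (1.74 ± 0.37 and 1.74 ± 0.36, adjusted p = 0.000773 and 0.000736) and not called at 4 weeks, with sums of the 3 red cell genes of 1239 to 2926 in sham and 2225 to 11566 in banding at 8 weeks. Of 4 smooth muscle and pericyte markers, Pdgfrb (0.45 ± 0.10 and 0.76 ± 0.10, adjusted p = 0.00145 and 4.29e-06) and Rgs5 (0.26 ± 0.09 and 0.44 ± 0.09, adjusted p = 0.0406 and 0.000801) were higher at both times, and the sums overlapped at 8 weeks (3337 to 4963 and 4635 to 5623). The other 2 were not called. Both had a negative difference at 4 weeks (lowest −0.43), and 1 had at 8 weeks (−0.22). No marker in any of these lists was at 0 in every library. The part of these shifts in the proteasome gene differences was not tested.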

How the data were processed

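Total RNA of the right ventricle was sequenced; per the labels' protocols, Trizol extracts of snap-frozen tissue went into libraries depleted of ribosomal RNA (TruSeq Ribo-Zero Gold, 800 ng). Per the submitters' processing notes, STAR, DESeq2 and the build rn6 were used. The sources used here do not give how reads were counted or with which strand setting. As values, the authors deposited normalized counts, a signal of reads over a size factor per library, and tables of their own comparisons with log2 fold changes, a score (the test statistic), p-values and adjusted p-values. In the authors' deposited tables, 2 members were higher and 1 lower at 4 weeks of banding, and 1 higher and 13 lower at 8 weeks; all 3 and 12 of these were also called here.

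All positive values were whole multiples (within 0.001) of a library's smallest step, so reads were recovered (100% whole). Symbols came from a deposited table and, for the other lists, from a GRCr8 reference used for names and neighbours only. The test was limma 3.58.1 on log2(value + 1) (R 4.3.3, empirical Bayes with trend, 2-sided, all 4 groups in 1 model); the fold change of low genes is understated on this scale. The scripts were tested on simulated data. Alternatives were other pseudocounts, filters, scalings and fits, edgeR 4.0.16 and DESeq2 1.42.0 on recovered reads, each library left out, and the libraries high in Myl7 or under 3 M reads left out. Replicate libraries differed by more than counting noise in every pair, so none was merged.

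Named members were all genes of the rule; full statistics went to the up to 3 called members of each class with the largest change, to the member with the smallest p of a class with none called, and always to Psme1 to Psme4, Psmf1, Psmd9 to Psmd12 and Psmd14. Psmg3, Paaf1, Ecpas, Ube3c and Nfe2l1 had no row of that name; Pomp and Rps27a did not pass the filter. Members, lists and tests were chosen with earlier results of these data known. The values of the ubiquitin and shuttle gene that was lower at 8 weeks are counted but not reported here.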

Additional observations from a re-analysis of the deposited data

Results flagged for a closer look

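In 11 of 168 gene and group combinations, 1 library stood apart from the rest of its group by Dixon's criterion, which chance alone meets in about 1 of 20 groups. Of these, 4 fell in the 8-week sham group, and 3 of them in replicate 1, the library with 2.81 M reads and the highest Myl7. There Psma1 was at 881 (the others at 1079 to 1143), Psma3 at 86.0 (134 to 152) and Psma7 at 925 (1161 to 1210.0). In replicate 5 of the same group Psma6 was at 506 (577 to 595). In banding at 8 weeks, replicate 3 was low for Psmb7 at 749.5 (905 to 919) and high for Psmd7 at 722 (621 to 634), and replicate 5 was low for Psmd1 at 1971 (2180.3 to 2204) and for Psmd8 at 508 (584 to 593). Psmc5 was low in replicate 3 of sham at 4 weeks at 709 (903 to 977) and high in replicate 1 of banding at 4 weeks at 837 (764 to 782). Psmc3ip was high in replicate 1 of banding at 4 weeks at 82.3 (49.8 to 56.2). In the interaction test of the banding effect between 4 and 8 weeks no member was called with limma, edgeR or DESeq2, while 14 had an unadjusted p under 0.05. The share of all IDs at that unadjusted threshold was not worked out.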

How the results depend on the processing

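Counts of members called for banding against sham stayed within 1.5 times the reported ones under every alternative run, at 3 to 4 for 4 weeks and 9 to 17 for 8 weeks. The genes behind such counts could change. Without the libraries high in Myl7, Psma4, Psma6, Psmb2, Psmc6 and Psmd2 were no longer called at 8 weeks, while Psmb5, Psmc3, Psmd7 and Psmd12 were called lower. Of the 8-week groups, that fit kept only replicates 3 and 4 of sham and replicates 1, 4 and 5 of banding. The genes no longer called kept negative differences, which are given with those genes. With edgeR, Psmd6 was called in place of Psma6. Psme1 and Psmd8 at both times, and Psma1, Psma7, Psmb4, Psmb7, Psmc2 and Psmc5 at 8 weeks, passed in all 34. No direction of a called member reversed. The reported 4 calls between sham groups became 2 with quantile normalization, 0 with only the groups compared, 8 with DESeq2, 0 without libraries with Myl7 above 1000 and 10 when the atrial score was added; leaving out 1 replicate gave 0 to 7. The reported 1 call between banded groups became 2 with a pseudocount of 5, TMM scaling, quantile normalization, DESeq2 or the atrial score, and 0 with no filter, with only the groups compared or without libraries with Myl7 above 1000; leaving out 1 replicate gave 0 to 2. The interaction had 0 calls, and 1 (Psmd12, lower) when the atrial score was added. The cause of these changes was not tested. Without the 2 libraries under 3 M reads, an alternative chosen after seeing the data, the counts were 3, 14, 5, 1 and 0. There the call between banded groups was Psma7 and not Psma4. Over 27 pairs of libraries with the same replicate number, the correlation of deviations ran from −0.276 to 0.323 and 7 were over 0.1. Of 19 libraries, 6 correlated best with their own number. A pairing of samples by number was thus not shown, though these values cannot exclude it. With the replicate block the counts were 3, 12, 4, 1 and 0. The fit of only the groups compared gives no interaction. At 8 weeks the intervals of Psme2 (−0.76 to 0.44) and Psmd10 (−0.78 to 0.32) were wide, and the 4 members under the filter were not tested.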
